A study of Mus musculus with 24 samples.

Results

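The genes described here encode the aminoacyl-tRNA synthetases, 36 genes chosen by name: 20 whose enzymes work in the cytosol (symbols without a 2, such as Aars) and 16 whose enzymes work in mitochondria (symbols ending in 2, such as Aars2). The array named 15946 genes, of which 8755 were bright enough to test. Probes annotated to 16 of the 20 cytosolic and 13 of the 16 mitochondrial genes were present, 24 and 16 probes respectively, and 14 cytosolic and 11 mitochondrial genes passed the filter of detection on at least 4 arrays. Dars, Lars, Mars, Qars, Aars2, Cars2 and Sars2 had no probe with their symbol in the annotation used here. The 3063 probes without a symbol were not used, and some of them may belong to these genes. Probes for Eprs, Hars, Hars2 and Yars2 were present but were detected on 0 of 24 arrays. These 11 genes were not analysed here, so the counts below are over the 25 tested genes.

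The study compared cortical neurons of mouse embryos that were wild type (WT) or lacked the transcription factor Atf4 (ATF4 KO), each left untreated (8 arrays per genotype) or exposed to homocysteate (HCA, 4 arrays per genotype), a glutamate homologue used to impose oxidative stress. The sample labels call the untreated neurons control treated, and no vehicle is named. Total RNA of each sample was read on 1 Illumina Mouse Ref-8 array, and the 24 arrays lay on 3 chips. On chip 1 were 4 untreated arrays per genotype, and chips 2 and 3 each carried 2 arrays of all 4 groups. The sources used here do not give embryo age, strain, the knockout allele, the HCA dose or the length of exposure. They also do not say whether replicates were separate cultures or embryos, so the p-values reflect only how far these samples scatter, which may be technical.

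Aminoacyl-tRNA synthetases join each amino acid to its tRNA, the step that fixes the genetic code. Mitochondria translate their own genome with tRNAs charged by a separate, nuclear-encoded set of synthetases, although Gars and Kars each encode both the cytosolic and the mitochondrial enzyme. Atf4 is translated when the integrated stress response is active, as when amino acids run short, and in mouse fibroblasts it is known to raise genes of amino acid uptake, amino acid synthesis and tRNA charging. Homocysteate blocks cystine uptake in immature cortical neurons and so depletes glutathione.

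Proximal promoters were read because Atf4 binds DNA together with C/EBP proteins at a known response element. RefSeq windows of build GRCm38.p6, 250 bases before to 50 after the start site, were at hand for 13 cytosolic and 14 mitochondrial genes. The element was searched as TGATGNAA on both strands, and it overlaps no other motif searched. It was present in 5 of the 13 cytosolic windows (Aars, Gars, Iars, Tars and Yars) and in 0 of the 14 mitochondrial ones, against 4.51% of all 27025 genes with a window. Not read were the cytosolic genes Cars, Hars, Lars, Nars, Rars, Vars and Wars and the mitochondrial genes Hars2 and Pars2. The windows of the cytosolic genes Dars, Eprs, Farsa, Farsb, Kars, Mars, Qars and Sars held no match. A match describes these letters in this window and shows no binding. The 5 windows printed are those with a match, each 5′ to 3′ on its gene's strand with the matches in capitals. They lie at chr8:111033592-111033891 (plus strand, Aars), chr6:55037751-55038050 (plus strand, Gars), chr15:11399609-11399908 (minus strand, Tars), chr13:49681880-49682179 (plus strand, Iars) and chr4:129189653-129189952 (plus strand, Yars).
Aars: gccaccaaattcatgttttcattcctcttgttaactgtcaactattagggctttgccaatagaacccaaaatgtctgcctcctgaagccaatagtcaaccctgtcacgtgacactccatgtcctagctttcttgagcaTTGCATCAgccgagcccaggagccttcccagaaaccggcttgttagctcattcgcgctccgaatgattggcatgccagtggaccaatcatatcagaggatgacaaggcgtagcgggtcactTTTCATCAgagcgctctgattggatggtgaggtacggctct
Gars: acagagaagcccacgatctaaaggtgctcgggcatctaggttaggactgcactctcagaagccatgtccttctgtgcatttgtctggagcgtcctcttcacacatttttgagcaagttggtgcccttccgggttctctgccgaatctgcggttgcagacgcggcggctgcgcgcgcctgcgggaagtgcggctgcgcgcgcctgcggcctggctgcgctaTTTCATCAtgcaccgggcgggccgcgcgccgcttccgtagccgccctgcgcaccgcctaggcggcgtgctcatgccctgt
Tars: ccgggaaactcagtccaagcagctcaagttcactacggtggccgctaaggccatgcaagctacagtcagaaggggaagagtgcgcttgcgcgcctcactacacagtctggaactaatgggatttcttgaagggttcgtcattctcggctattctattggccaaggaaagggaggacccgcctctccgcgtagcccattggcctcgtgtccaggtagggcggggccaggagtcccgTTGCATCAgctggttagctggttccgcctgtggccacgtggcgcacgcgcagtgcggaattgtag
Iars: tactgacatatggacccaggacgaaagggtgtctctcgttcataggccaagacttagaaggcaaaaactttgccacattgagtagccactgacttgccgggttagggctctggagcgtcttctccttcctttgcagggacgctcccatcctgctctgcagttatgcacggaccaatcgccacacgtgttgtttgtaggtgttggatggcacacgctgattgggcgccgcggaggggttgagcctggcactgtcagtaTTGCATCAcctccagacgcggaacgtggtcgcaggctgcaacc
Yars: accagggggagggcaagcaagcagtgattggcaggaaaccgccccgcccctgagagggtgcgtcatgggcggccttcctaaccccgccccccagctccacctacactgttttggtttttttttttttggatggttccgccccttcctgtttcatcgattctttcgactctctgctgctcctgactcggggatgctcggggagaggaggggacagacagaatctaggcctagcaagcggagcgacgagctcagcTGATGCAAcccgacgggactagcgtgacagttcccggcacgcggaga
The Aars window held 2 matches, TTGCATCA beginning 112 bases before the start site and TTTCATCA beginning 9 bases after it. In Gars the word TTTCATCA began 30 bases before the start site, and in Tars TTGCATCA began 15 bases before it. The Iars match, TTGCATCA, began 7 bases after the start site, and all 5 of these words are the element on the opposite strand. The Yars match, TGATGCAA, began 3 bases after the start site on the gene's own strand.

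The targeted gene was examined first. The Atf4 probe was detected on 8 of 8 untreated and 4 of 4 HCA arrays of WT neurons and on 0 of 8 and 0 of 4 arrays of ATF4 KO neurons. With the dimmest detected signal of each knockout array as the bound, the deficit of Atf4 in the knockout was at least 16.3-fold in untreated and at least 19.1-fold in HCA-exposed neurons (limma adjusted p = 1.66e-20 and 3.16e-13). Of the neuronal markers, Tubb3, Map2, Stmn2, Syt1 and Gap43 were detected on 24 of 24 arrays and Snap25 on 0. Mean raw signal was 745 to 983 per array on chip 1, 342 to 537 on chip 2 and 296 to 669 on chip 3, and chip was a term of the reported fits, with a fit without it as an alternative. Untreated WT replicate 2 and untreated knockout replicate 3, both of chip 1, lay low for Cars, and results are given with and without them where they matter.

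Untreated neurons without Atf4 had lower signals of cytosolic synthetases. Of the 14 tested, 5 were lower at a Benjamini-Hochberg adjusted p below 0.05 in limma (Cars, Aars, Nars, Sars and Gars) and 0 were higher, where 6.53% of the 8755 genes were lower and 5.88% higher. The median log2 difference, knockout minus WT, was -0.11 over the cytosolic genes and 0.02 over all genes tested. Of the 14 cytosolic genes 11 lay below 0, against 46.0% of all genes. Of the 11 mitochondrial genes, 0 passed the test, 1 had an unadjusted p below 0.05 (2391 of the 8755 genes did), and their median was 0.03. The mitochondrial differences ran from -0.29 for Wars2 to 0.21 for Vars2. Leaving out both arrays that lay low for Cars gave 5 cytosolic and 0 mitochondrial calls.

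Cars, which charges the cysteine tRNA, had the largest difference of the tested synthetases. Its log2 normalised intensity ran from 6.56 through a median of 9.08 to 9.61 over the 8 untreated WT arrays and from 5.92 through 7.58 to 8.53 over the 8 knockout arrays. The groups overlapped when the 3 chips were pooled and did not overlap within chip 2 or within chip 3. The log2 difference was -1.28 ± 0.27 (SE, limma, adjusted p = 0.00478), a 2.43-fold lower signal, and the within-chip values ran from -1.43 to -1.13. The call was lost without the chip term (adjusted p = 0.0713). Without WT replicate 2 it was -1.52, and without both low arrays it was -1.37.

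Aars, the alanyl-tRNA synthetase, showed the smallest spread of the lowered genes relative to its difference. Its level ran from 12.02 through 12.16 to 12.43 in untreated WT neurons and from 11.45 through 11.53 to 11.65 in knockout neurons. Every knockout array lay below every WT array, and the log2 difference was -0.63 ± 0.051 (SE, limma, adjusted p = 1.86e-08). Nars, which charges the asparagine tRNA, ran from 11.11 through 11.31 to 11.56 in WT and from 10.63 through 10.69 to 10.85 in knockout neurons. Its groups also did not overlap, and the difference was -0.60 ± 0.072 (SE, limma, adjusted p = 1.26e-05).

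Sars, the seryl-tRNA synthetase, ran from 10.80 through 10.97 to 11.11 in untreated WT and from 10.47 through 10.70 to 10.75 in knockout neurons, again without overlap. It differed by -0.30 ± 0.063 (SE, limma, adjusted p = 0.00444), and did not pass when arrays were centred on their medians (adjusted p = 0.388). Gars, the glycyl-tRNA synthetase, ran from 12.36 through 12.58 to 12.79 in WT and from 12.20 through 12.40 to 12.59 in knockout neurons, and these ranges overlapped. Its difference of -0.17 ± 0.044 (SE, limma, adjusted p = 0.0155) did not pass without the chip term (adjusted p = 0.220), on chips 2 and 3 alone (0.0989), with median centring (0.615) or with the replicate number as a block (0.0552). Tars, the threonyl-tRNA synthetase, had a difference of -0.20 that missed the threshold (limma adjusted p = 0.104).

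**Figure D1:**
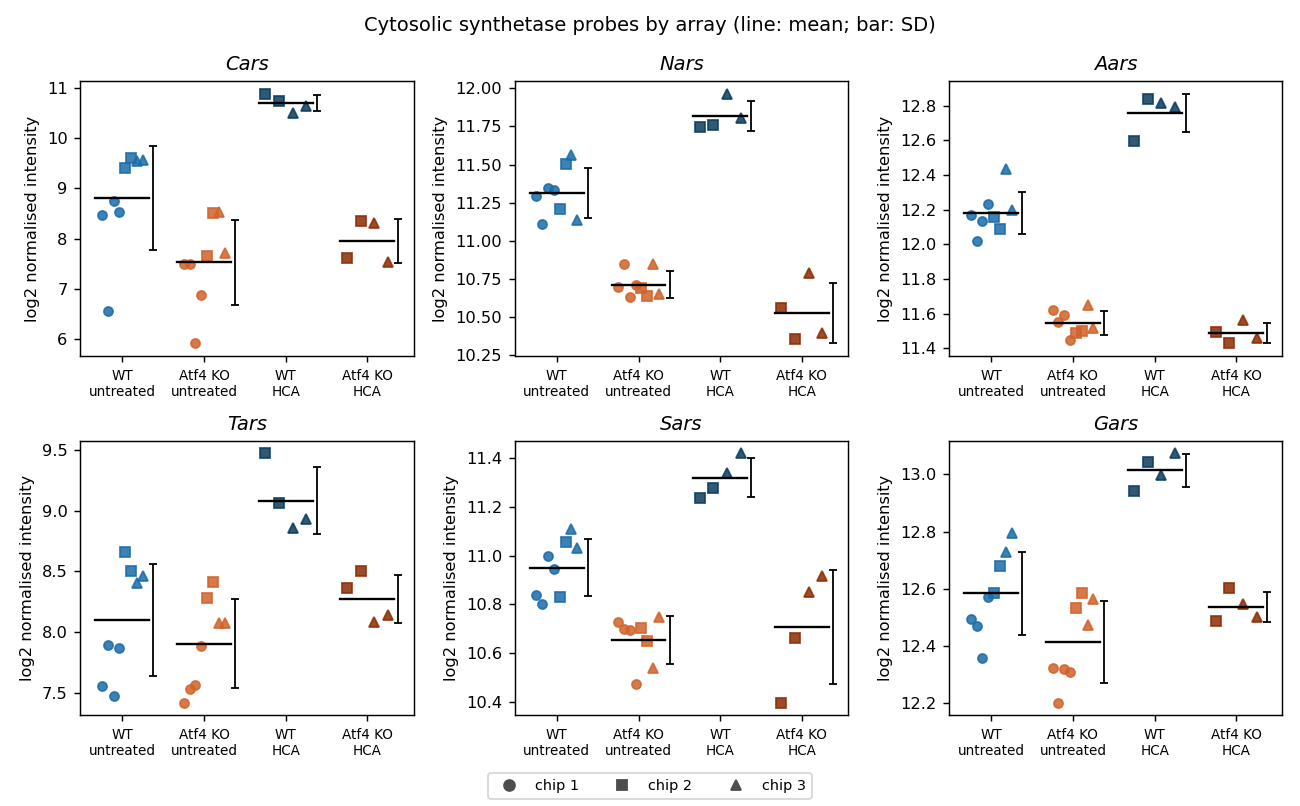
Log2 normalised intensity of 6 cytosolic synthetase probes on each of the 24 arrays, by group (WT or Atf4 KO, untreated or HCA), with the chip as the point's shape, the group mean as a line and the SD as a bar. In HCA-exposed neurons every knockout array lies below every WT array for all 6 genes, and for Cars the WT arrays sit between 10.50 and 10.88 against 7.54 to 8.35 in the knockout. The 6 genes are the cytosolic ones that passed that comparison, apart from Yars. How many of all genes separate in this way was not counted.

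Under HCA more cytosolic genes passed the genotype test, and so did more of all genes, than in untreated neurons over 24 arrays. Of all genes 6.53% were lower in that untreated comparison. The array sets differed. On chips 2 and 3 alone the untreated comparison had 5 cytosolic genes lower, and 931 of all genes lower and 859 higher. The HCA comparison was made over the 16 arrays of chips 2 and 3, with 975 of all genes lower and 946 higher. In it 7 of 14 cytosolic synthetases were lower in the knockout and 0 were higher, where 11.1% of all genes were lower and 10.8% higher. They were the 5 of the untreated comparison with Tars and Yars added. Yars, the tyrosyl-tRNA synthetase, read 5.59, 5.79, 5.76 and 5.94 in WT and 5.50, 5.04, 5.02 and 4.87 in knockout neurons. It was detected on 0 of 4 arrays in both groups, so its call (limma adjusted p = 0.00349) compares signals not above background and no fold is given. The median log2 difference was -0.32 over the cytosolic and 0.03 over all genes.

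Cars read 10.88, 10.74, 10.50 and 10.64 on the 4 WT HCA arrays and 7.61, 8.35, 8.31 and 7.54 on the 4 knockout HCA arrays. The lowest WT array lay above the highest knockout array by more than the whole range of either group. The log2 difference was -2.74 ± 0.23 (SE, limma, adjusted p = 1.71e-06), a 6.67-fold lower signal, the largest of the 25 tested synthetases. Nars read 11.74, 11.76, 11.97 and 11.80 in WT and 10.56, 10.36, 10.79 and 10.39 in knockout neurons. Its groups lay apart on both chips, with a difference of -1.30 ± 0.11 (SE, limma, adjusted p = 2.45e-06).

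Aars read 12.60, 12.84, 12.81 and 12.79 on the WT arrays and 11.49, 11.43, 11.56 and 11.46 on the knockout arrays under HCA. These groups too were apart, by -1.27 ± 0.074 (SE, limma, adjusted p = 4.66e-08), or 2.42-fold. Tars read 9.47, 9.07, 8.86 and 8.93 in WT and 8.36, 8.50, 8.08 and 8.14 in knockout neurons. It thus passed here, with no overlap, at -0.81 ± 0.088 (SE, limma, adjusted p = 1.94e-05).

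Sars read 11.24, 11.28, 11.34 and 11.42 in WT against 10.40, 10.66, 10.85 and 10.92 in knockout neurons, a difference of -0.61 ± 0.092 (SE, limma, adjusted p = 0.000311). The Sars arrays of the knockout spread more widely than those of WT but stayed below them. Gars read 12.94, 13.04, 13.00 and 13.07 in WT and 12.49, 12.60, 12.55 and 12.50 in knockout neurons, a difference of -0.48 ± 0.064 (SE, limma, adjusted p = 0.000114) with no overlap. The within-chip differences of these 6 genes had the same sign on chips 2 and 3. With median centring Gars (adjusted p = 0.127) and Yars (adjusted p = 0.106) did not pass.

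The remaining 7 cytosolic genes did not pass under HCA. They were Farsb and Farsa, the subunits of the phenylalanyl-tRNA synthetase, at -0.16 and 0.05, Vars (valine) at -0.12, Wars (tryptophan) at -0.11, Iars (isoleucine) at -0.10, Rars (arginine) at 0.03 and Kars (lysine) at 0.11 on the log2 scale. Their standard errors were 0.081 to 0.17. Iars was detected on 1 of 4 arrays in each HCA group, so its estimate rests mostly on signals below the detection limit.

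Of the 11 mitochondrial synthetases tested under HCA, 1 was lower in the knockout (Wars2) and 2 were higher (Fars2 and Rars2). These counts are near the shares of all genes, 11.1% lower and 10.8% higher, and the median log2 difference of the 11 was 0.17. Fars2, the mitochondrial phenylalanyl-tRNA synthetase, read 9.62, 9.69, 9.76 and 9.71 in WT and 10.02, 10.04, 10.07 and 10.10 in knockout HCA neurons. Every knockout array lay above every WT array, and the difference was 0.36 ± 0.071 (SE, limma, adjusted p = 0.00230). With median centring it did not pass (adjusted p = 0.583), nor did any other mitochondrial gene. In untreated neurons Fars2 differed by 0.10 (limma adjusted p = 0.311), with within-chip values of -0.06, 0.27 and 0.25 on chips 1, 2 and 3.

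Rars2, which charges the mitochondrial arginine tRNA, read 9.12, 9.21, 9.01 and 8.78 in WT and 9.37, 9.26, 9.26 and 9.18 in knockout HCA neurons. These groups overlapped, and the difference of 0.24 ± 0.076 (SE, limma, adjusted p = 0.0366) passed in 10 of the 16 fits that each left out 1 array. Wars2, the mitochondrial tryptophanyl-tRNA synthetase, read 6.98, 6.93, 7.45 and 7.07 in WT and 6.41, 6.39, 6.43 and 6.67 in knockout HCA neurons. The groups did not overlap, and the difference of -0.63 ± 0.19 (SE, limma, adjusted p = 0.0307) passed in 11 of those 16 fits. With the replicate number as a block, neither Rars2 (limma adjusted p = 0.0591) nor Wars2 (limma adjusted p = 0.0829) passed. Rars2 also did not pass without a filter on dim probes, without the chip term, with chip as a random block or with only the compared groups. Wars2 also did not pass with all 24 arrays in the fit. In untreated neurons the Wars2 difference was 0.26 on chip 1, -0.78 on chip 2 and -0.89 on chip 3.

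The other 8 mitochondrial genes ran from -0.24 (Nars2) through Lars2 at -0.12, Ears2 near 0, Mars2 at 0.12, Iars2 at 0.17, Pars2 at 0.20 and Tars2 at 0.23 to Vars2 at 0.39 on the log2 scale under HCA. Their standard errors ran from 0.073 for Iars2 to 0.31 for Mars2. Mars2 and Nars2 were each detected on 1 of 4 arrays in both HCA groups, so small differences of these genes were not detectable here.

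**Figure D2:**
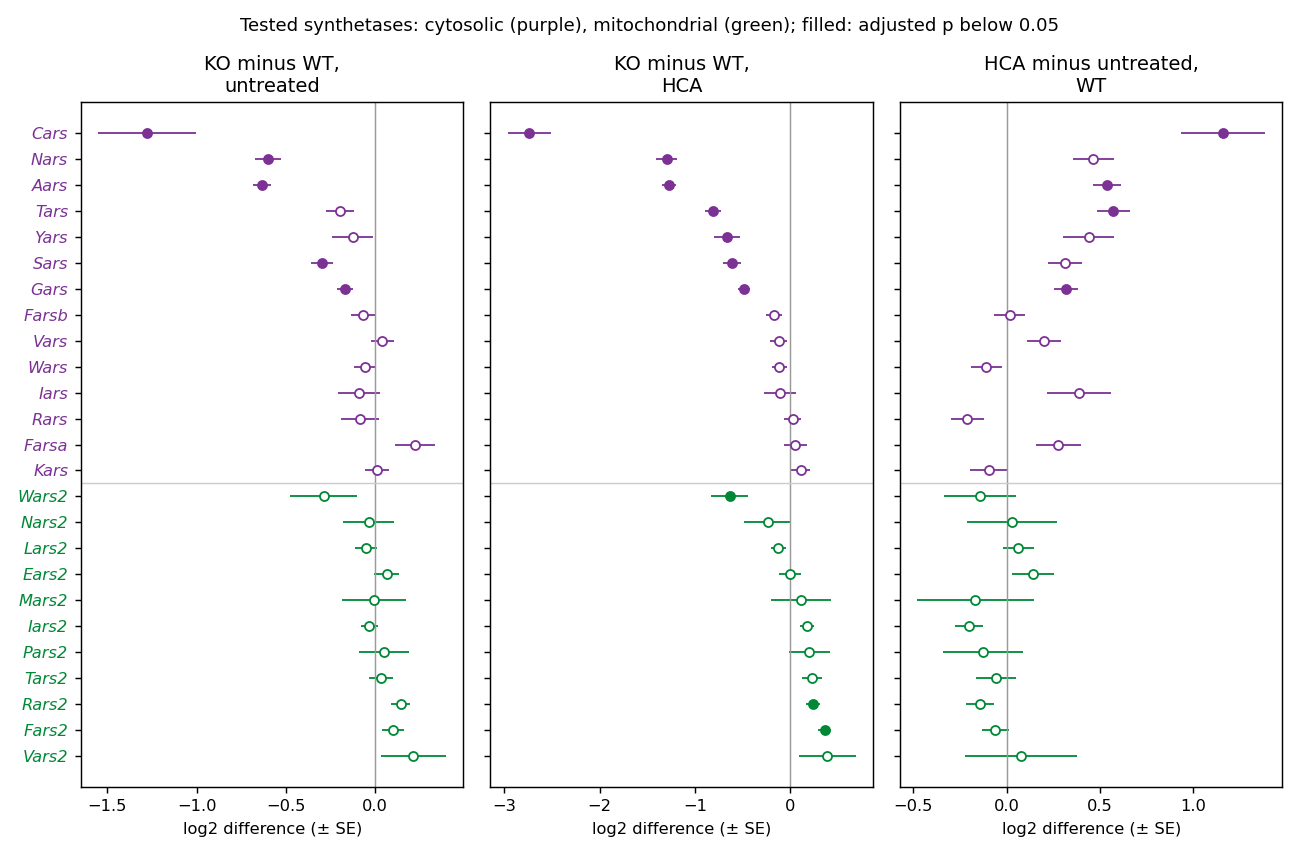
Log2 difference with its SE for the 25 tested synthetases in 3 comparisons, cytosolic genes above the grey line and mitochondrial genes below it, with filled points at a limma adjusted p below 0.05. Yars was detected on 0 HCA arrays. The filled cytosolic points lie to the left of 0 in both genotype comparisons and to the right in the HCA response of WT neurons, while the mitochondrial points lie on both sides of 0. Each panel has its own horizontal scale.

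HCA itself raised cytosolic synthetases in WT neurons. Of 14 tested, 4 were higher after HCA (Cars, Tars, Aars and Gars) and 0 lower, where 0.857% of all genes were higher. The differences were 1.16 ± 0.23 for Cars (SE, limma, adjusted p = 0.0214), 0.57 ± 0.088 for Tars (adjusted p = 0.00430), 0.54 ± 0.074 for Aars (adjusted p = 0.00190) and 0.32 ± 0.064 for Gars (adjusted p = 0.0234). Nars, at 0.47, narrowly missed the threshold (limma adjusted p = 0.0521). Sars, at 0.31, missed it by a wider margin (limma adjusted p = 0.122). Yars at 0.44 and Iars at 0.39 did not pass either (limma adjusted p = 0.146 and 0.325), and both were undetected on most arrays. The cytosolic median was 0.31, against -0.01 over all genes tested. Rars, Wars and Kars had values of -0.21, -0.11 and -0.10, with limma adjusted p between 0.279 and 0.714.

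Among mitochondrial synthetases 0 of 11 passed for this response in limma, with 1 at an unadjusted p below 0.05 (Iars2, at -0.20) and a median of -0.06. Of the 8755 genes, 1240 had an unadjusted p below 0.05 in this response. The 4 cytosolic calls depended on the setting: with only the WT arrays in the fit 1 passed (Cars), with median centring 1 (Cars), and with a gene's probes averaged 2 (Cars and Gars). Cars lost its call in 6 and Gars in 5 of the 16 fits that each left out 1 array.

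In knockout neurons 0 of 14 cytosolic and 0 of 11 mitochondrial synthetases differed with HCA at an adjusted p below 0.05 in limma, where 0.0343% of all genes passed. At an unadjusted p below 0.05 the counts were 0 and 0, against 446 of the 8755 genes. Among the 12 cytosolic genes detected on 24 of 24 arrays, estimates ran from -0.18 for Nars to 0.07 for Vars on the log2 scale. Cars differed by -0.15 ± 0.23, Aars by -0.05 ± 0.074 and Tars by 0.06 ± 0.088 (SE, limma).

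The difference between the responses was tested directly. Of all genes 0.274% passed, and of the 14 cytosolic synthetases 1 did, Aars, whose response to HCA was lower in the knockout by 0.59 on the log2 scale (value -0.59 ± 0.11, SE, limma, adjusted p = 0.0279). That call was lost in 12 of the 16 fits that each left out 1 array, with values of -0.65 to -0.54. It was also lost with the replicate number as a block (adjusted p = 0.123), without the chip term (0.0704), with median centring (0.995) and with the probes of a gene averaged (0.879). Cytosolic values that did not pass included Cars at -1.31 (limma adjusted p = 0.197), Nars at -0.65 (0.197), Tars at -0.51 (0.197) and Gars at -0.32 (0.291). Of the 11 mitochondrial genes 0 passed, and their median was 0.10.

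The member values tested above were also averaged over each set, array by array, so these means are not separate support. The cytosolic mean includes the called genes, Cars with the largest difference among them, and Yars, which was undetected under HCA. Cytosolic genes not called under HCA differed between genotypes there by -0.16 to 0.11 on the log2 scale. Values were taken relative to the mean of the untreated WT arrays of the same chip, which sets that group near 0. The mean over the 14 cytosolic genes ran from -0.22 to 0.12 in untreated WT neurons, from -0.34 to -0.18 in untreated knockout neurons, from 0.27 to 0.37 in WT neurons with HCA and from -0.33 to -0.17 in knockout neurons with HCA. The 4 WT arrays with HCA stood above all others, and both knockout groups covered a like range. WT replicate 2 of chip 1, at -0.22, was the one untreated WT array inside the range of the knockout arrays. The mean over the 11 mitochondrial genes lay between -0.19 and 0.15 on all 24 arrays, and its 4 group ranges overlapped.

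**Figure D3:**
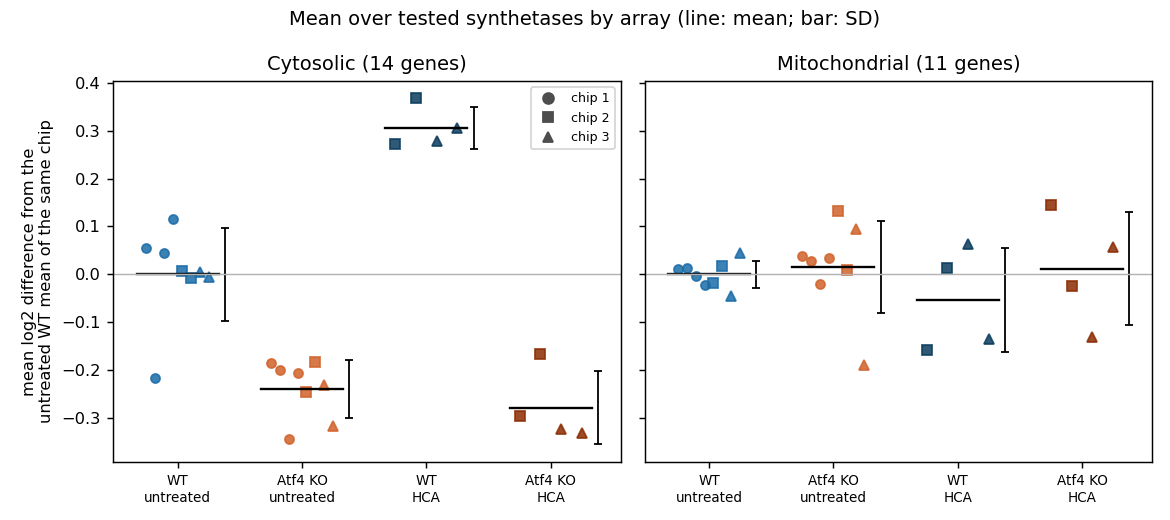
Mean log2 difference from the untreated WT mean of the same chip over the 14 cytosolic (left) and the 11 mitochondrial synthetases (right), 1 point per array, with the chip as the point's shape, the group mean as a line and the SD as a bar. The cytosolic means of WT arrays with HCA lie between 0.27 and 0.37 and those of both knockout groups between -0.34 and -0.17, while the mitochondrial means of all groups overlap.

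Within chips the medians were as follows. Knockout minus WT, the cytosolic median was -0.14, -0.12 and -0.17 on chips 1, 2 and 3 in untreated neurons and -0.28 and -0.36 on chips 2 and 3 under HCA. The mitochondrial medians were 0.01, 0.10 and -0.02 in untreated neurons and 0.21 and 0.05 under HCA. Cytosolic medians were thus negative on each chip in both conditions, and mitochondrial ones were near 0 or above it.

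For 7 amino acids there was a tested enzyme of both kinds. This gave 8 pairs since Farsa and Farsb share Fars2. Cars, Aars, Sars and Gars had no tested partner. The cytosolic log2 difference lay below the mitochondrial one in 6 of 8 pairs in untreated neurons and in 7 of 8 under HCA. By calls, the cytosolic gene alone passed in 1 untreated pair and neither gene in 7. Under HCA the cytosolic gene alone passed in 2 pairs, the mitochondrial gene alone in 4 (Fars2 counting for both of its pairs) and neither in 2. The widest gaps under HCA were those of Nars and Nars2 (-1.30 against -0.24) and of Tars and Tars2 (-0.81 against 0.23). Wars and Wars2 went the other way, at -0.11 against -0.63. In the HCA response of WT neurons the cytosolic value was the lower of the pair in 1 of 8, that of Rars and Rars2. These differences between pair members were not tested.

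**Figure D4:**
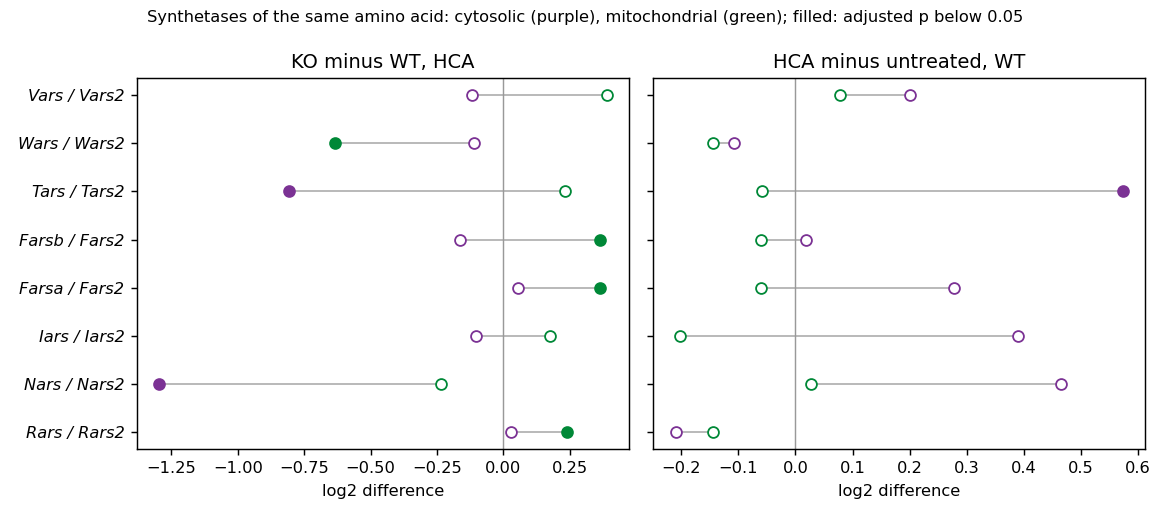
Log2 differences of cytosolic and mitochondrial synthetases of the same amino acid in 8 pairs, for knockout minus WT under HCA (left) and HCA minus untreated in WT neurons (right), joined by a line and filled at a limma adjusted p below 0.05. Nars and Tars lie far to the left of their partners in the left panel, and Wars2 lies to the left of Wars. Each panel has its own horizontal scale.

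Genes with more than 1 probe were checked for agreement. The dimmer Sars probe was lower too in the knockout than in WT among HCA-exposed neurons, with a log2 difference of -0.46 (limma adjusted p = 0.000293 over all probes), and had a value of -0.17 in untreated neurons (adjusted p = 0.0903). A dimmer Aars probe was detected on 8 of 24 arrays and on 0 of 4 in both HCA groups, so it gives no HCA comparison, and its value in untreated neurons was -0.05. A dimmer Tars probe, detected on 16 arrays, read -0.16 and -0.31 without passing. The dimmer probes of Vars (7 arrays, 0 of them with HCA, 0.08 in untreated neurons) and Wars (13 arrays, 1 of 4 in each HCA group, 0.00 in untreated neurons) did not pass either. The dimmer Rars2 probe was higher in untreated knockout neurons by 0.39 (limma adjusted p = 0.0285) and read 0.38 under HCA (adjusted p = 0.0943).

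Partners of the synthetases were followed through 5 further lists, whose counts stand beside 6.53% lower and 5.88% higher of all genes in untreated neurons and 11.1% and 10.8% under HCA. Of 3 tested scaffold proteins of the multisynthetase complex, 2 were higher in the knockout under HCA, Aimp1 by 0.27 and Eef1e1 by 0.41 on the log2 scale (limma adjusted p = 0.0177 and 0.00809), and 0 passed in untreated neurons. Of 4 genes that act on mitochondrial tRNAs or their charged forms, 2 were higher in the untreated knockout. They were Gatb (0.27, limma adjusted p = 0.0222) and Qrsl1 (0.14, limma adjusted p = 0.0463). Both encode subunits of the amidotransferase that makes the mitochondrial glutamine tRNA, and Qrsl1 was also higher under HCA, by 0.33 (limma adjusted p = 0.00433). Counts of 1 in the next 2 lists are not far from those shares. Of 8 mitochondrial translation factors, 1, the elongation factor Tsfm, was higher under HCA by 0.35 (limma adjusted p = 0.0382). Of 6 cytosolic elongation factors, 1, Eef1g, was higher under HCA by 0.30 (limma adjusted p = 0.00867).

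Among 4 other genes of tRNA charging and traffic, Xpot, which exports tRNA from the nucleus, was lower in the knockout by 0.33 in untreated neurons and by 0.88 under HCA (values -0.33 and -0.88, limma adjusted p = 0.0271 and 0.000280). Aarsd1, an editing enzyme for mischarged alanine tRNA, was higher under HCA by 0.33 (limma adjusted p = 0.0129). In the HCA response of either genotype and in the difference between the responses, 0 genes of these 5 lists passed in limma.

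Markers of other cells also differed with genotype, where 6.53% of all genes were lower in untreated and 11.1% in HCA-exposed knockout neurons. Lower in the knockout, untreated and under HCA respectively, were 3 and 3 of 3 tested astrocyte markers, 4 and 4 of 4 markers of dividing cells, 3 and 4 of 5 microglial markers, 2 and 1 of 3 progenitor markers, 2 and 1 of 3 of the oligodendrocyte lineage, 1 and 2 of 3 of meninges and fibroblasts, 0 and 1 of 1 of pericytes, and 3 and 3 of 4 inhibitory neuron markers. Excitatory neuron markers were higher for 2 and 3 of 4, with 0 and 1 lower. The summed log2 level of the dividing-cell markers was 11.18 to 11.69 in untreated WT, 10.26 to 11.41 in untreated knockout, 11.08 to 11.22 in WT with HCA and 10.12 to 10.39 in knockout with HCA. That of the astrocyte markers was 11.36 to 11.88, 10.78 to 11.68, 11.39 to 11.65 and 10.71 to 11.01 in the same order. Summed pan-neuronal markers lay between 13.21 and 13.70 on all arrays, although 1 of the 5, Tubb3, was lower in the knockout under HCA by 0.41 (value -0.41, limma adjusted p = 0.0429). Gfap, Aldoc, Pax6, Olig2, Gad2, Pecam1, Kdr, Col1a2 and Col3a1 were detected on 0 of 24 arrays. Fewer cells of a type and less RNA per cell cannot be told apart in these samples, and the part of these markers in the synthetase differences was not tested. In the HCA response of WT neurons, 78 of the 8755 genes were lower and 75 higher. Of the markers, 1 each of astrocytes, dividing cells, progenitors, the oligodendrocyte lineage and excitatory neurons was lower and 0 of any list were higher. The list medians of that response were -0.20, -0.38, -0.28, -0.31 and -0.16 in that order, 0.42 for microglia, 0.20 for the pericyte marker, 0.15 for inhibitory neurons, -0.05 for meninges and -0.03 for pan-neuronal markers.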

How the data were processed

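Per the file headers, BeadStudio 1.5.1.3 made the deposited signals, intensities on a linear scale for 24048 probes with no normalization, and a detection value per probe, a fraction between 0 and 1 as deposited, read here as 1 minus a detection p. The deposited matrix of log2 values (23983 probes, made with limma per the submitters' processing notes) equalled the quantile-normalized log2 raw signals to within 4.97e-14 and was used to name probes. The platform annotation gave 20919 of its probes 1 symbol, 1 several and 3063 none.

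Each array's background mean and SD were taken from signals at detection quantiles, removed by normexp (offset 16), quantile-normalized and put on log2. Limma's own inferred SD was 214 to 302 on chip 1, against 17.4 to 20.1 from the quantiles, and reached 240 on chip 3, and was kept as an alternative. Probes detected (p below 0.05) on at least 4 arrays were kept, and the brightest stood for its gene, which left 8755 genes. Limma 3.58.1 (R 4.3.3) was fitted with group and chip, on 24 arrays for the untreated comparison and on the 16 of chips 2 and 3 for the others, with Benjamini-Hochberg adjustment over all genes. The number of arrays limits the precision. The fits were tested on simulated data.

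All members were named, with array values for those called (lowest, median and highest in groups of 8), and the called genes of the lists. The members and lists were chosen with earlier results of these data known. Alternatives were other background corrections, scalings, filters, probe rules, chip terms, array sets and weights, a replicate block and leaving out each array.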

Additional observations from a re-analysis of the deposited data

Results flagged for a closer look

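Within a group, 1 array stood apart from the others by Dixon's test for 7 of 100 gene and group combinations, or 7%, where chance flags about 1 in 20. Untreated WT replicate 2 gave 4 of them: it was the lowest of its 8 arrays for Cars (6.56), Farsb (10.84) and Rars (8.96) and the highest for Vars2 (8.79). Untreated knockout replicate 5 was the lowest of its group for Kars (9.82). WT HCA replicate 1 was the lowest for Pars2 (6.06), and knockout HCA replicate 4 was the highest for Wars2 (6.67). The HCA response of Aars differed between the genotypes by the test of that difference itself, at -0.59 on the log2 scale (limma, adjusted p = 0.0279, knockout minus WT). As given above, that call was lost in most of the fits that each left out 1 array. It was also lost without the chip term, with median centring, with averaged probes and with the replicate number as a block.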

How the results depend on the processing

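The 20 differences called for single synthetases kept their direction under each of the 15 other settings that gave a value for them and in each fit that left out 1 array. Of them 7 stayed past the threshold throughout: Aars and Nars in both genotype comparisons, and Cars, Sars and Tars under HCA. The cytosolic median lay below that of all genes in both genotype comparisons under the 17 and 16 settings compared, by 0.08 to 0.20 in untreated neurons and by 0.25 to 0.37 under HCA.

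When arrays were centred on their medians instead of quantile-normalized, 3 cytosolic genes passed in untreated neurons, 0 mitochondrial under HCA, 1 cytosolic in the HCA response of WT neurons and 0 in the difference between responses, and 151, 395, 17 and 9 genes of all in these comparisons. Lower calls were then 75.5%, 91.6% and 5.88% of all calls in the first 3, against 52.6%, 50.8% and 51.0%, and the all-gene median moved to -0.11 in the HCA response of knockout neurons and to -0.15 in the difference between responses. Without the chip term the untreated calls were 3 cytosolic genes and 192 in all (70.3% lower), and the difference between responses had 0 cytosolic. Averaging a gene's probes gave 1 mitochondrial untreated call, 2 cytosolic calls in the WT response and 0 in the difference. With limma's inferred background, without background correction and with the deposited matrix, the difference had 2 cytosolic and 39 genes, and the knockout's response 5 genes.

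With chips 2 and 3 alone, the untreated comparison had 2 mitochondrial calls and 1790 genes. With all 24 arrays, the knockout's response had 5 genes and the difference 3 cytosolic and 56 genes. With only the compared groups in the fit, the WT response had 1 cytosolic call and 37 genes (24.3% lower) and the knockout's response 0. Without a filter on dim probes, the WT response had 100 genes.

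Replicate numbers are shared between genotypes. The deviations of same-numbered arrays had r over 0.1 in 1 of 8 untreated and 2 of 4 HCA pairs. This r ran from -0.23 to 0.16 in untreated and from 0.09 to 0.20 in HCA pairs. On the chips with 2 arrays per group, both pairs of a treatment gave the same r, so they are not separate values. The check therefore cannot tell whether same-numbered arrays were paired. A replicate block left 622 genes in the untreated comparison, 1 mitochondrial call under HCA, and 0 cytosolic calls and 14 genes in the difference.

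Leaving out each array in turn gave, for cytosolic, mitochondrial and all genes, 5 to 6, 0 to 1 and 704 to 1275 calls in untreated neurons, 7 to 9, 1 to 3 and 1446 to 1950 under HCA, 2 to 5, 0 to 0 and 59 to 140 in the WT response, 0 to 0, 0 to 0 and 0 to 5 in the knockout's, and 0 to 2, 0 to 0 and 18 to 27 in the difference. The lowest untreated count of all genes came without WT replicate 8. Leaving out both arrays low for Cars, chosen after seeing the data, gave 5, 0 and 1394 untreated calls. Beyond settings whose construction changes the arrays or genes, the cause of these changes was not tested.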
